A study of Mus musculus with 12 samples.

Results

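The genes described here are 30 genes used as markers of blood vessels and of the barriers they form. They comprise 3 tight junction genes, 5 genes of barrier transporters, 11 genes expressed across endothelium, 6 pericyte genes and 5 smooth muscle genes. Each was taken by its exact gene symbol, and each had 1 transcript cluster of its own, a cluster being the set of probes that the array reads as 1 transcript. They are 30 of the 18820 gene symbols with a cluster of their own on the array, which hold 21218 of its 35556 clusters.

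RNA was measured in the hippocampus and in pieces of ileum labelled Peyer's patches, on Affymetrix Mouse Gene 1.0 ST arrays. The mice carried FIRE, an enhancer in an intron of *Csf1r* (FIRE +/+), or were homozygous for its deletion (FIRE -/-). Each of the 4 groups held 3 arrays, 12 in all. All mice were 6 weeks old, of the strain labelled C57BL/6J/CBA, and were perfused with saline before the tissues were taken. FIRE +/+ samples of both tissues came from 2 males and 1 female by their labels, and FIRE -/- samples from 1 male and 2 females. The deletion was made with CRISPR in the oocyte, is present in every cell including the vessel wall, and descends from a single male founder that was crossed to C57BL/6J. It is not stated whether one mouse gave both tissues.

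An endothelial cell lines every vessel. In the brain, endothelial cells are sealed by tight junctions, carry nutrients by dedicated transporters, pump many drugs back into the blood by ATP-driven transporters and take up little by vesicles, and this set of features is the blood-brain barrier. In the gut, capillaries of the villus are fenestrated and absorb nutrients, and the tight junctions and drug pumps of the wall lie largely in the epithelium. Pericytes are embedded in the basement membrane of capillaries and are needed for the brain barrier, while smooth muscle surrounds arterioles in both tissues and forms the muscle layers of the gut.

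Values are RMA log2 signals, so a difference of 1 is a doubling of signal. Each gene was read by its own probes, so signals are compared between samples and never between genes. In whole tissue, fewer cells of a type and less RNA per cell cannot be told apart.

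Before the vessel genes, the labels were checked against the targeted gene and against markers of other cells. *Csf1r* signal in the hippocampus was 8.34, 8.31 and 8.15 in FIRE +/+ and 3.58, 3.69 and 3.65 in FIRE -/- mice, and all 8 genes of a microglia list fell there in FIRE -/- mice, with means of 7.31 to 7.48 in FIRE +/+ and 3.93 to 4.05 in FIRE -/- mice. The mean signal of 8 neuron genes was 10.5 to 10.7 in the hippocampus and 4.67 to 5.002 in the ileum, and that of 10 epithelial genes was 3.48 to 4.03 and 11.1 to 11.3. For 7 astrocyte genes it was 9.83 to 10.1 and 5.31 to 5.62. The means of 2 red cell and 4 platelet genes lay under the lowest array median on all arrays, at 3.38 to 3.82 and 3.16 to 4.09. Some arrays stood apart. FIRE -/- hippocampus array 2 carries a female label, yet its signals of *Xist* (2.44) and the Y-linked *Eif2s3y* (6.18) lay with those of the males. FIRE +/+ hippocampus array 2 was low in 7 choroid plexus genes (mean 5.28, against 7.52 to 8.53 on the other 5). FIRE +/+ ileum array 2 and FIRE -/- ileum array 1 were high in 9 B cell genes (7.55 and 7.65, against 3.41 to 3.87 on the other 4). The means on those 4 lay under the lowest array median, although every ileum sample is labelled Peyer's patches. Arrays of a tissue correlated across clusters with r from 0.991 to 0.996 in the hippocampus and from 0.981 to 0.992 in the ileum.

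**Figure D1:**
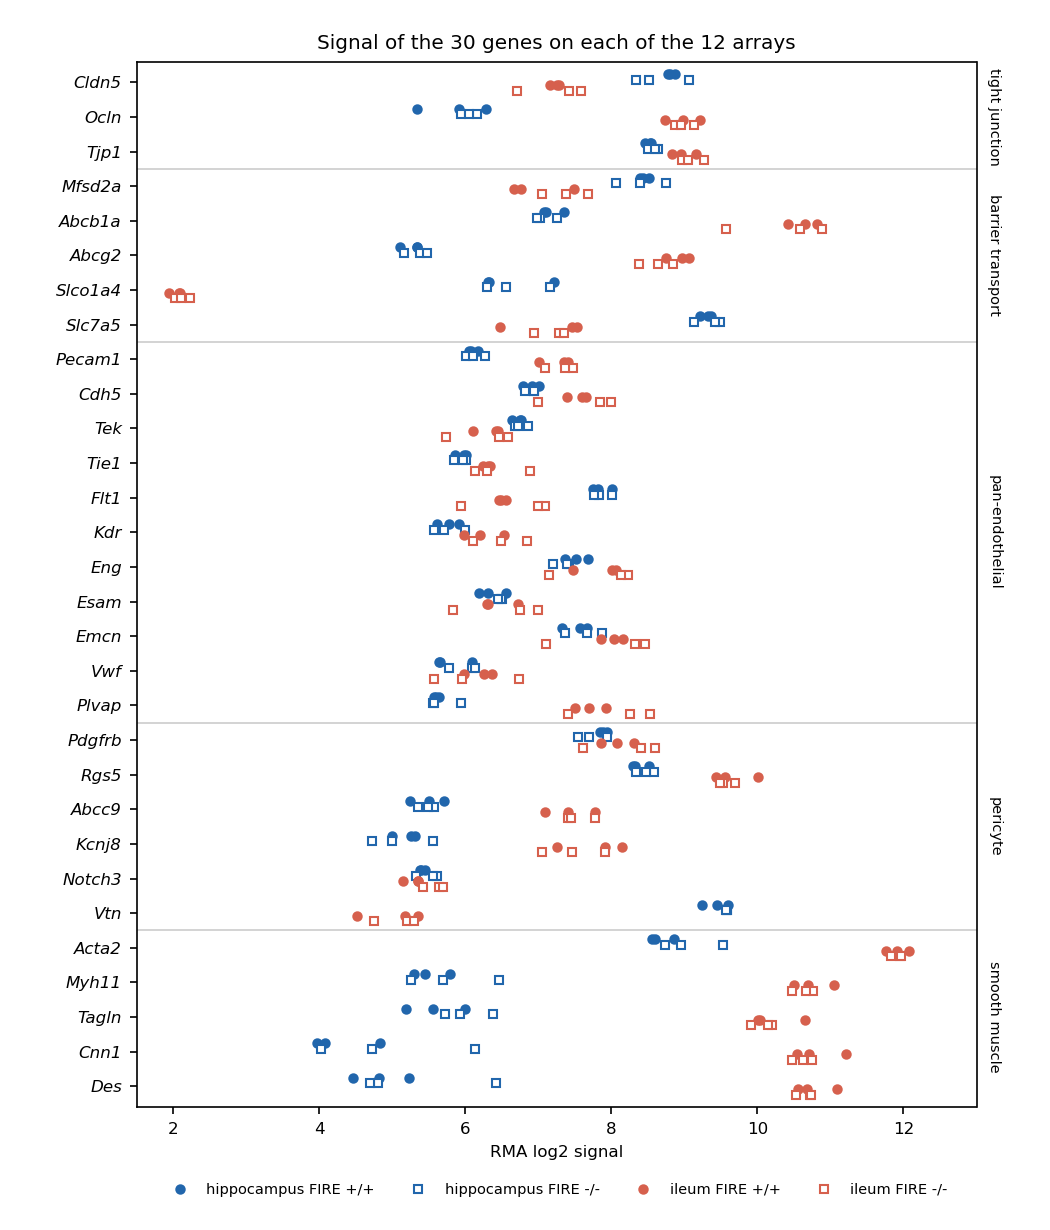
RMA log2 signal (x axis) of the 30 genes (rows) on the 12 arrays. Circles are FIRE +/+ and squares FIRE -/- arrays, blue for hippocampus and red for ileum. The colours separate widely for *Slco1a4*, *Vtn* and the 5 smooth muscle genes and lie close for *Esam*, *Pdgfrb* and *Notch3*, while circles and squares of a colour overlap for all genes but *Notch3* in the ileum.

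The first comparison asked whether vessel genes differ between a hippocampus without microglia and one that has them. None of the 30 genes passed the threshold. Limma called 0 at an adjusted p under 0.05 and 0 at an unadjusted p under 0.05, and the test of each cluster on its own variance also called 0. Of all 21218 clusters 95 were called (0.448%), all lower in FIRE -/- mice, and 379 were higher and 625 lower at an unadjusted p under 0.05. The genotypes overlapped for all 30 genes, whereas 9.66% of all clusters did not overlap. The median log2 difference of the 30 genes was 0.06, with 20 above 0 and 10 below, beside a median of 0.0077 over all clusters. It was 0.02 without FIRE +/+ array 3 and 0.0022 with the ending of the array names as a covariate. All FIRE +/+ hippocampus arrays share an ending that, of the FIRE -/- ones, only array 3 has. Genotype and this ending therefore cannot be fully told apart, and the estimate with the covariate rests on that array.

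Among the tight junction genes, *Cldn5*, the main claudin of brain endothelium, was at 8.80, 8.88 and 8.77 in FIRE +/+ and at 9.06, 8.51 and 8.34 in FIRE -/- hippocampus. The single highest value and the lowest values were thus all from FIRE -/- mice. The log2 difference was -0.18 (95% confidence interval -0.58 to 0.23, limma adjusted p = 0.992). *Ocln*, which encodes occludin, differed by 0.20 (interval -0.30 to 0.71), and *Tjp1*, which encodes the junction scaffold ZO-1, by 0.07 (interval -0.12 to 0.26).

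The transporters of the barrier had differences from -0.09 to 0.08. *Mfsd2a*, the lipid transporter that restrains vesicle uptake in brain endothelium, was at 8.51, 8.43 and 8.40 in FIRE +/+ and at 8.06, 8.74 and 8.39 in FIRE -/- hippocampus, a difference of -0.05 (interval -0.43 to 0.33). The drug efflux pump genes *Abcb1a*, for P-glycoprotein, and *Abcg2* differed by -0.09 and 0.08. *Slco1a4*, an organic anion transporter, was at 6.31, 7.21 and 6.32 against 6.30, 7.16 and 6.56, and each genotype therefore held 1 array well above the others. *Slc7a5*, the carrier of large neutral amino acids, differed by 0.05 (interval -0.22 to 0.31).

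The 11 genes expressed across endothelium had a median difference of 0.03. *Pecam1*, the adhesion molecule CD31, was at 6.18, 6.09 and 6.05 in FIRE +/+ and at 6.27, 6.01 and 6.11 in FIRE -/- hippocampus. *Cdh5*, which encodes VE-cadherin, was at 7.01, 6.80 and 6.91 against 6.94, 6.94 and 6.82, a difference of -0.01 (interval -0.22 to 0.21). For both of these junction proteins of endothelial cells the genotypes overlapped. The receptor genes were as close, with differences of 0.01 for *Flt1* and -0.0044 for *Kdr*, both VEGF receptors, 0.04 for the angiopoietin receptor *Tek* and -0.01 for its relative *Tie1*. The ends of the range were *Eng*, the TGF-beta co-receptor endoglin, at -0.19 (interval -0.45 to 0.07) and *Vwf*, von Willebrand factor, at 0.20 (interval -0.15 to 0.56). *Esam* and *Emcn*, which encode an adhesion molecule and a sialomucin of endothelium, differed by 0.13 and 0.11. *Plvap*, which forms the diaphragms of fenestrae and is characteristic of vessels without a barrier, was at 5.64, 5.57 and 5.60 against 5.56, 5.57 and 5.95. It lay 0.09 higher in the mean (interval -0.19 to 0.37), with 1 FIRE -/- array above the other 5.

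Pericyte genes differed by -0.16 to 0.14. *Pdgfrb*, the receptor by which endothelium recruits pericytes, is the neighbour of *Csf1r* on chromosome 18. Its signal was 7.84, 7.89 and 7.94 in FIRE +/+ and 7.94, 7.70 and 7.55 in FIRE -/- hippocampus, so that 2 of the 3 FIRE -/- arrays lay below all FIRE +/+ arrays and 1 was level with the highest. The difference was -0.16 (interval -0.42 to 0.10, limma adjusted p = 0.992). *Vtn*, the matrix protein vitronectin that brain pericytes secrete, differed by 0.14 (interval -0.10 to 0.39). *Rgs5*, a regulator of G protein signals, and *Notch3*, the Notch receptor of mural cells, both differed by 0.09. *Abcc9* and *Kcnj8*, the subunits of the potassium channel of brain pericytes, differed by -0.02 and -0.09.

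The smooth muscle genes had the widest genotype differences of the 30 genes in the hippocampus, 5 of 5 above 0 with a median of 0.43, and none passed the test. *Cnn1*, which encodes calponin, was at 3.97, 4.83 and 4.08 in FIRE +/+ and at 6.13, 4.03 and 4.73 in FIRE -/- hippocampus. *Des*, for the filament protein desmin, was at 4.47, 5.23 and 4.82 against 6.42, 4.80 and 4.69. *Acta2*, for smooth muscle actin, was at 8.60, 8.85 and 8.56 against 9.53, 8.74 and 8.95. In each case FIRE -/- array 1 was the highest of the 6 and the other arrays of both genotypes were mixed. The same array was highest for *Myh11*, the smooth muscle myosin heavy chain (6.46, next 5.79), and for the actin-binding *Tagln* (6.38, next 6.00).

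The differences ranged from 0.29 for *Myh11* (interval -0.37 to 0.95) to 0.67 for *Cnn1* (interval -0.47 to 1.80). Without FIRE -/- array 1 they were 0.18 for *Acta2*, -0.04 for *Myh11*, 0.25 for *Tagln*, 0.09 for *Cnn1* and -0.09 for *Des*. That array also had the highest mean of 9 meningeal fibroblast genes (6.94, against 6.52 to 6.77 on the other 5), and the part of meninges in the result was not tested. *Cnn1* was under the median of its array on 3 of the 6 hippocampus arrays.

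**Figure D2:**
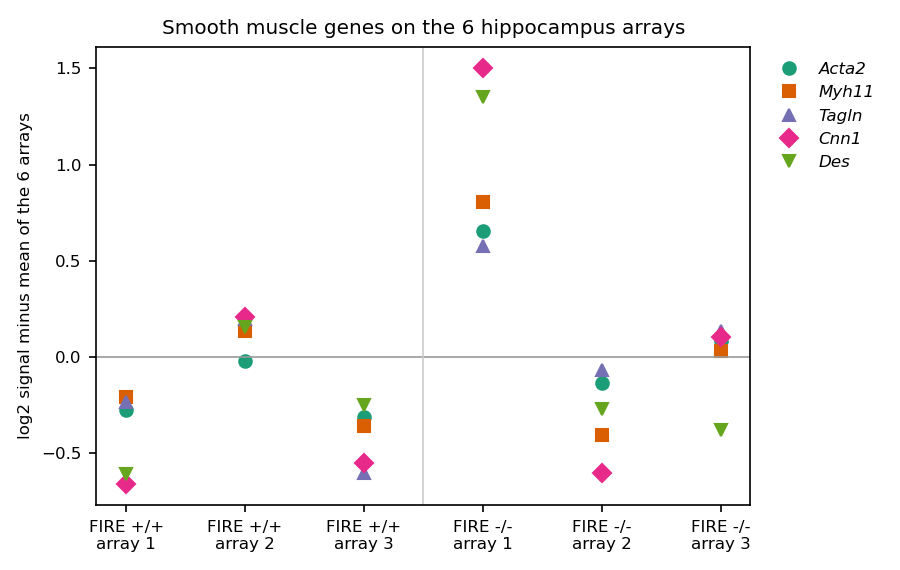
Log2 signal of the 5 smooth muscle genes on each hippocampus array, minus the mean of the 6 arrays (y axis), with a vertical line between genotypes. FIRE -/- array 1 is the highest for all 5 genes, most so for *Cnn1* and *Des* (raw signals of 6.13 and 6.42), and the other 5 arrays overlap between genotypes.

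In the ileum again none of the 30 genes passed the threshold between genotypes. Limma called 0 of 30 and 0 of all 21218 clusters (0%), and the test of each cluster on its own variance called 0. At an unadjusted p under 0.05 there was 1 of the 30 genes, against 393 clusters higher and 327 lower in all. Differences ran from -0.30 to 0.40 with a median of 0.03, beside -0.0099 over all clusters. That median has no settled sign: it was -0.04 without FIRE +/+ array 1, 0.07 without FIRE +/+ array 3, 0.18 without FIRE -/- array 1, -0.06 without FIRE -/- array 2 and -0.03 without FIRE -/- array 3. Genotypes did not overlap for 1 of 30 genes (3.33%), against 8.04% of all clusters.

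That gene was *Notch3*, at 5.35, 5.35 and 5.15 in FIRE +/+ and at 5.65, 5.70 and 5.42 in FIRE -/- ileum. All 3 FIRE -/- arrays lay above the FIRE +/+ arrays. The difference was 0.30 (interval 0.0076 to 0.59, limma adjusted p = 0.999). It is the gene counted at an unadjusted p under 0.05, and it did not pass. The other pericyte genes had differences from -0.30 for *Kcnj8* to 0.12 for *Pdgfrb*, with intervals that held 0.

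The widest difference in the ileum was that of the transporter gene *Mfsd2a*, followed by the endothelial gene *Plvap* (0.35). *Mfsd2a* was at 7.49, 6.77 and 6.66 in FIRE +/+ and at 7.38, 7.68 and 7.06 in FIRE -/- ileum, a difference of 0.40 (interval -0.20 to 1.002). *Abcg2* was at 8.75, 8.96 and 9.07 against 8.64, 8.38 and 8.84, a difference of -0.30 (interval -0.67 to 0.06). In both the genotypes overlapped, since FIRE +/+ array 1 lay within the range of FIRE -/- arrays. *Abcb1a* differed by -0.28 (interval -1.05 to 0.49), where FIRE -/- array 2 was at 9.57 and all others at 10.43 or above. The tight junction genes differed by 0.01 for *Cldn5* and *Ocln* and by 0.11 for *Tjp1*, and smooth muscle genes by -0.21 to -0.01.

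For the 11 endothelial genes the spread within FIRE -/- ileum exceeded the difference between genotypes, with a median SD of 0.58 in FIRE -/- and of 0.20 in FIRE +/+. FIRE -/- array 2 was the highest of the 6 for 10 of the 11 and FIRE -/- array 1 the lowest for 9. *Emcn* was at 7.85, 8.04 and 8.16 in FIRE +/+ and at 7.11, 8.46 and 8.33 in FIRE -/- ileum. *Flt1* was at 6.55, 6.49 and 6.46 against 5.94, 7.10 and 7.001, and *Plvap* at 7.70, 7.93 and 7.504 against 7.40, 8.52 and 8.26. For each, the FIRE +/+ arrays lay between the FIRE -/- arrays. Their differences were -0.05, 0.18 and 0.35, with intervals that held 0.

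The low array is 1 of the 2 with high B cell signal. The other, FIRE +/+ array 2, was not low in endothelial genes (mean of the 11 genes 6.97, against 6.46 on FIRE -/- array 1 and 6.87 to 7.37 on the remaining 4). The median difference of the 11 genes was 0.06 with all arrays, 0.37 without FIRE -/- array 1 and -0.08 without FIRE -/- array 2. It was 0.39 without both arrays of high B cell signal. No gene passed in any of these settings, and the part of lymphoid tissue was not tested.

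**Figure D3:**
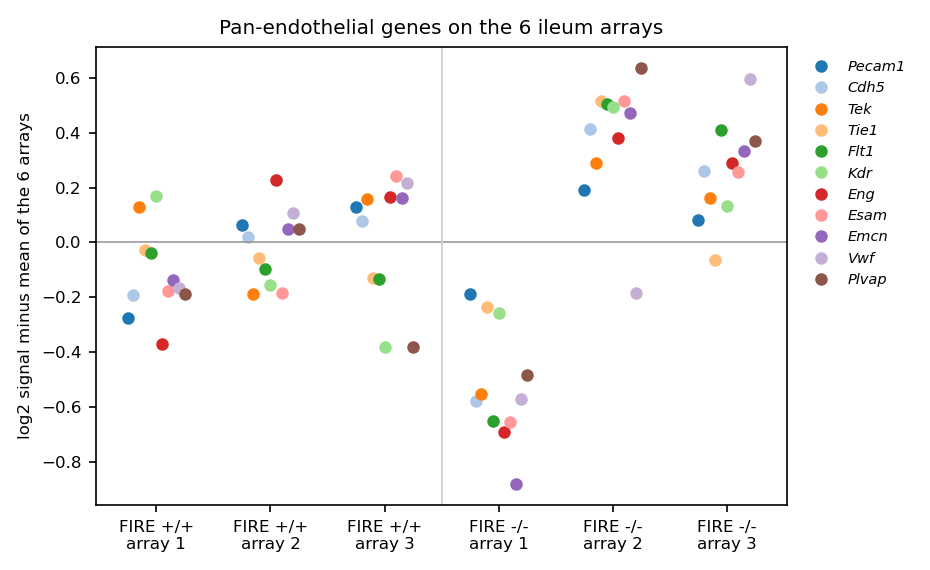
Log2 signal of the 11 endothelial genes on each ileum array, minus the mean of the 6 arrays (y axis), with a vertical line between genotypes. FIRE -/- array 1 is the lowest for 9 genes and FIRE -/- array 2 the highest for 10, and the FIRE +/+ arrays lie between for most genes.

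**Figure D4:**
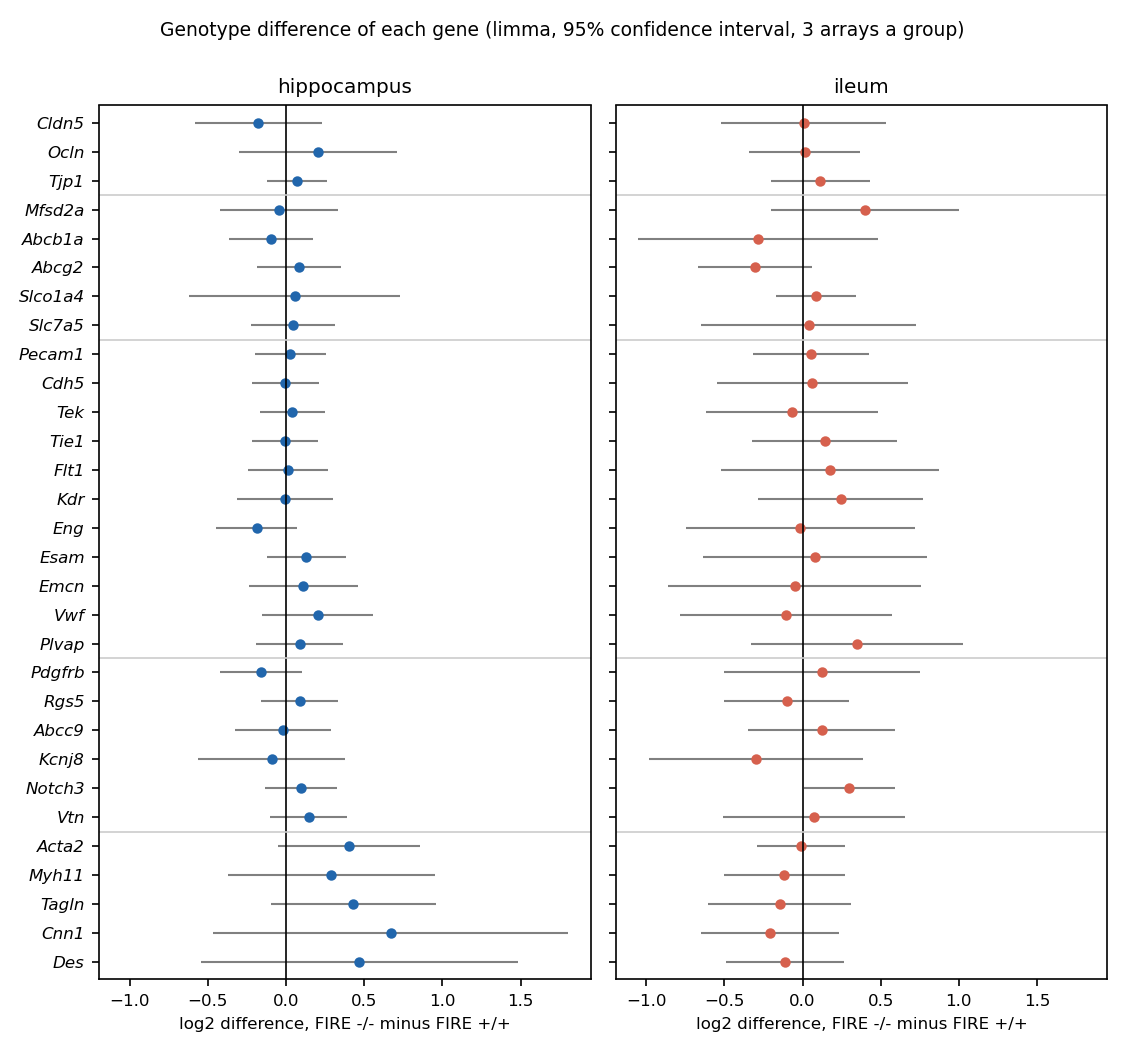
Log2 difference between genotypes (x axis, FIRE -/- minus FIRE +/+) of each gene in the hippocampus (left) and the ileum (right). Points are limma estimates from 3 arrays a group and lines their 95% confidence intervals. The intervals hold 0 except for *Notch3* in the ileum, and they are widest for *Cnn1* and *Des* in the hippocampus.

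The precision of these comparisons is set by 3 arrays a group, with which an exact permutation test of a single gene cannot go below p = 0.1. In the hippocampus 28 of 30 confidence intervals lay within a difference of 1 in either direction, and in the ileum 27. For the 25 genes other than smooth muscle the intervals in the hippocampus reached from -0.62 to 0.73 at most. Smaller differences were not detectable, and the absence of a call does not show that the genotypes are alike.

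The genotype effect was next compared between tissues. None of the 30 genes passed (limma, 0 adjusted and 0 at an unadjusted p under 0.05, and 0 by the test of each cluster on its own variance), where 0.0895% of all clusters did. Differences of the effects, hippocampus minus ileum, ran from -0.45 for *Mfsd2a* (interval -1.17 to 0.27) to 0.88 for *Cnn1* (interval -0.44 to 2.19). The smooth muscle genes again had the highest values, 5 of 5 above 0 with a median of 0.57. FIRE -/- hippocampus array 1 enters this comparison as well. The smallest unadjusted p of the 30 genes was 0.0764, for *Abcg2*, whose effects differed by 0.39.

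The second question was how the vessel genes differ between hippocampus and ileum. In FIRE +/+ mice 7 of the 30 genes were higher in the hippocampus (23.3%, against 27.1% of all clusters), 18 were higher in the ileum (60%, against 29.4%) and 5 did not pass. In FIRE -/- mice 6 were higher in the hippocampus (20%, against 29.7% of all clusters), 16 in the ileum (53.3%, against 32%) and 8 did not pass. The same 6 and 16 genes passed in both genotypes, 3 in FIRE +/+ alone and 0 in FIRE -/- alone, and 29 of 30 genes had the same sign. The difference in tissue effect between genotypes is the test between tissues given above, in which no gene passed. The names of all FIRE +/+ hippocampus arrays end in other digits than those of the ileum arrays, so that tissue and this mark of the array cannot be told apart there. Of the FIRE -/- hippocampus arrays, 2 share the ending of the ileum arrays, and with these alone 6 genes were higher in the hippocampus and 14 in the ileum.

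**Figure D5:**
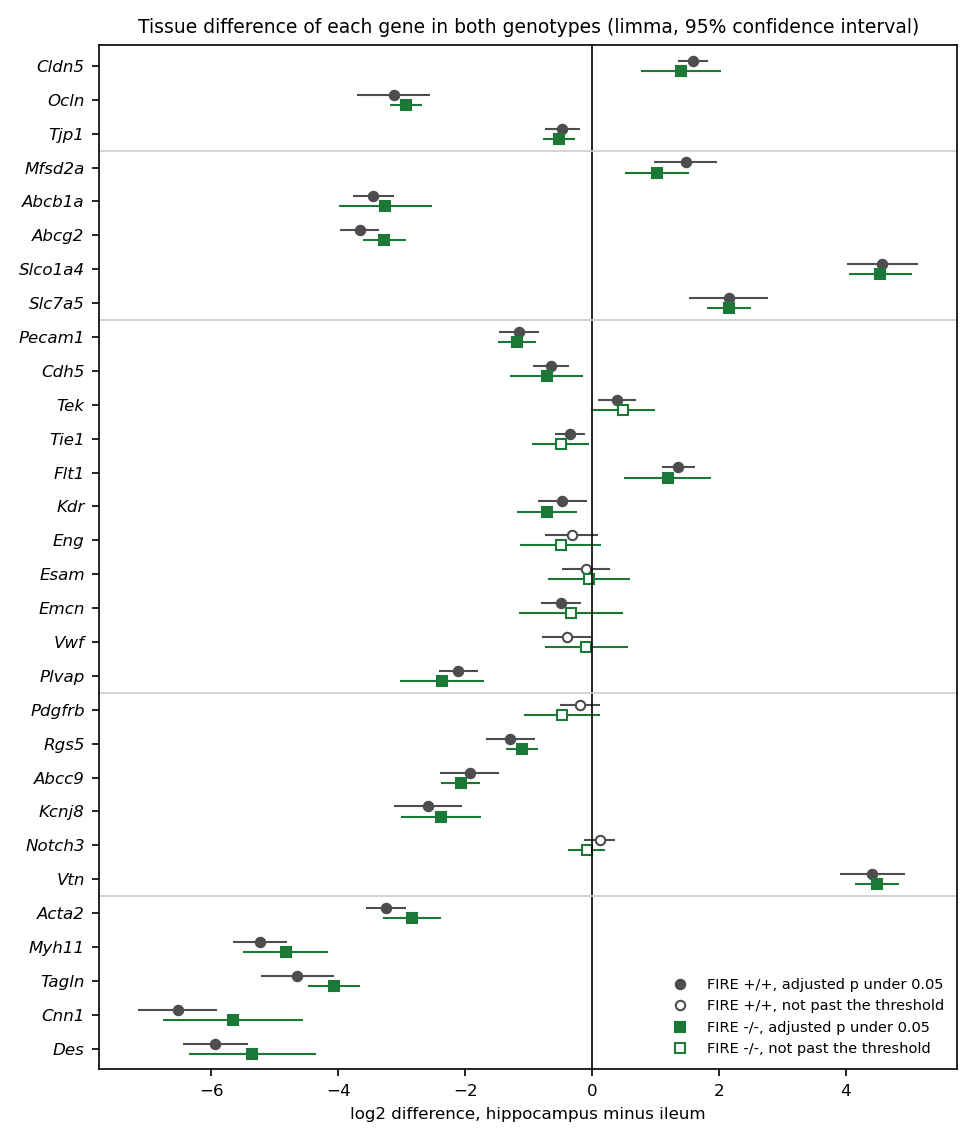
Log2 difference between tissues (x axis, hippocampus minus ileum) of each gene in FIRE +/+ (circles) and FIRE -/- mice (squares), with 95% confidence intervals from limma. Filled symbols passed an adjusted p of 0.05. Both genotypes give the same direction for every gene but *Notch3*, from -6.53 for *Cnn1* to 4.57 for *Slco1a4* in FIRE +/+ mice.

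Tight junction genes divided between the tissues. *Cldn5* was at 8.80, 8.88 and 8.77 in FIRE +/+ hippocampus and at 7.15, 7.29 and 7.26 in FIRE +/+ ileum. All hippocampus arrays lay above all ileum arrays, 2.996-fold in FIRE +/+ mice (log2 difference 1.58, SE 0.10, limma adjusted p = 4.21e-06) and 2.64-fold in FIRE -/- mice. *Ocln* was the other way round, at 6.29, 5.92 and 5.34 against 9.21, 8.73 and 8.99, or 8.74-fold higher in the ileum (log2 difference -3.13, SE 0.24, adjusted p = 1.37e-05) and 7.65-fold higher in FIRE -/- mice. *Tjp1* was 1.39-fold higher in the ileum of FIRE +/+ mice and 1.43-fold in FIRE -/- mice. Occludin and ZO-1 also seal epithelial cells, and the signal of the epithelial genes given above moved with them, but its part was not tested.

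Transporter genes divided in the same manner, into 3 higher in the hippocampus and 2 higher in the ileum in both genotypes. *Slco1a4* was at 6.31, 7.21 and 6.32 in FIRE +/+ hippocampus and at 2.08, 2.10 and 1.94 in FIRE +/+ ileum, with a log2 difference of 4.57 (SE 0.24, limma adjusted p = 1.34e-06). On all 6 ileum arrays it was under the array median, and the files give no call of detection above background. With the array median taken as the floor, *Slco1a4* was at least 4.53-fold higher in the hippocampus of FIRE +/+ and at least 4.78-fold in that of FIRE -/- mice. *Slc7a5* was at 9.21, 9.37 and 9.33 against 6.47, 7.46 and 7.53, and *Mfsd2a* at 8.51, 8.43 and 8.40 against 7.49, 6.77 and 6.66. Both were higher on every hippocampus array than on any ileum array, 4.44-fold and 2.78-fold in FIRE +/+ mice, and 4.46-fold and 2.04-fold in FIRE -/- mice.

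The drug pumps were higher in the ileum. *Abcb1a* was at 7.08, 7.11 and 7.35 in FIRE +/+ hippocampus and at 10.43, 10.81 and 10.65 in FIRE +/+ ileum, 10.9-fold higher in the ileum (log2 difference -3.45, SE 0.14, limma adjusted p = 3.12e-07). *Abcg2* was at 5.10, 5.34 and 5.34 against 8.75, 8.96 and 9.07, 12.7-fold higher. In FIRE -/- mice the pumps were 9.57-fold and 9.69-fold higher in the ileum. Both pumps are known from the brush border of enterocytes as well as from brain endothelium, and in whole tissue the 2 sources were not separated.

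Of the 11 endothelial genes, 2 were higher in the hippocampus, 6 in the ileum and 3 did not pass in FIRE +/+ mice. In FIRE -/- mice the numbers were 1, 4 and 6. Of all clusters 27.1% were higher in the hippocampus and 29.4% in the ileum of FIRE +/+ mice. The shares in FIRE -/- mice were 29.7% and 32%, so 4 of 11 in the ileum lay near the share of all clusters. The median difference was -0.40 in FIRE +/+ and -0.50 in FIRE -/- mice, beside -0.03 and -0.07 over all clusters. *Plvap* was at 5.64, 5.57 and 5.60 in FIRE +/+ hippocampus and at 7.70, 7.93 and 7.504 in FIRE +/+ ileum, 4.31-fold higher in the ileum (log2 difference -2.11, SE 0.13, limma adjusted p = 3.66e-06) and 5.17-fold higher in FIRE -/- mice. *Pecam1* was at 6.18, 6.09 and 6.05 against 7.01, 7.35 and 7.41, 2.22-fold higher in the ileum and 2.27-fold in FIRE -/- mice. *Flt1* ran against them, at 8.01, 7.75 and 7.81 in the hippocampus against 6.55, 6.49 and 6.46, 2.56-fold higher in FIRE +/+ hippocampus (SE 0.11 for a log2 difference of 1.36) and 2.28-fold in FIRE -/- mice. The 2 VEGF receptors therefore lay in opposite directions, since *Kdr* was higher in the ileum, by 1.38-fold in FIRE +/+ and by 1.64-fold in FIRE -/- mice.

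The remaining endothelial genes differed by little. *Cdh5* was 1.56-fold higher in the ileum of FIRE +/+ mice (adjusted p = 0.00222) and 1.64-fold in FIRE -/- mice (adjusted p = 0.0366). *Emcn* was higher in the ileum of FIRE +/+ mice by 0.49 on the log2 scale (adjusted p = 0.0154) and did not pass in FIRE -/- mice (log2 difference -0.33, adjusted p = 0.443). *Tie1* was 1.27-fold higher in the ileum and *Tek* 1.31-fold higher in the hippocampus of FIRE +/+ mice, with adjusted p = 0.0205 and 0.0325. In FIRE -/- mice neither passed, at log2 differences of -0.50 and 0.49. *Eng*, *Esam* and *Vwf* did not pass in either genotype, with log2 differences of -0.32, -0.09 and -0.40 in FIRE +/+ mice (adjusted p = 0.169, 0.661 and 0.0763).

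These small differences depend on the fit and on single arrays. In FIRE +/+ mice *Tek*, *Kdr*, *Tie1* and *Emcn* did not pass in 1 limma fit of all 12 arrays (adjusted p 0.0571 to 0.167). *Tek* and *Kdr* also did not pass by the test of each cluster on its own variance or with every cluster tested. *Tek* did not pass with labelled sex as a covariate, nor *Kdr* with array weights, while *Vwf* passed in both of these settings. *Kdr* did not pass without ileum array 1 (-0.32), ileum array 2 (-0.49), hippocampus array 2 (-0.39) or hippocampus array 3 (-0.47). *Tek* did not pass without ileum array 2 (0.28), hippocampus array 1 (0.37) or hippocampus array 2 (0.37). *Tie1* did not pass without ileum array 1 (-0.33), hippocampus array 2 (-0.36) or hippocampus array 3 (-0.30), nor *Emcn* without ileum array 3 (-0.42) or hippocampus array 2 (-0.40). *Eng* passed without ileum array 1 (-0.51), and *Vwf* without ileum array 1 (-0.51) or hippocampus array 3 (-0.55).

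The ileum array singled out above as low in endothelial genes changed several of these calls in FIRE -/- mice. Without it *Tie1* (-0.65), *Eng* (-0.84), *Esam* (-0.39) and *Emcn* (-0.76) also passed as higher in the ileum, as did *Pdgfrb* (-0.78), and 27 of the 30 genes passed in place of 22. With that array kept, *Tie1* also passed with labelled sex as a covariate, with array weights and in 1 fit of all 12 arrays, among other settings. *Eng* and *Pdgfrb* passed with array weights. *Tek* passed without ileum array 2 (0.65) and in 1 fit of all 12 arrays. *Cdh5* did not pass without any 1 of hippocampus arrays 1, 2 and 3 (-0.73, -0.73 and -0.67) or ileum arrays 2 and 3 (-0.52 and -0.60). *Kdr* did not pass without hippocampus array 2 or 3 (-0.63 and -0.69). With all arrays kept, neither passed by the test of each cluster on its own variance, and *Cdh5* also not with every cluster tested.

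Sequence before the start of 2 endothelial genes that differ in opposite directions, *Flt1* and *Emcn*, is shown because both hold a pair of AGGAAG words, the core bound by ETS factors, a family active in endothelium. The stretches are from RefSeq promoters (GRCm38.p6), which span 250 bases before and 50 after a gene's start, and were at hand for 21 of the 30 genes. They lie at chr5:147726044-147726155 on the minus strand and at chr3:137340889-137341005 on the plus strand, and capitals mark the word on either strand.
*Flt1*: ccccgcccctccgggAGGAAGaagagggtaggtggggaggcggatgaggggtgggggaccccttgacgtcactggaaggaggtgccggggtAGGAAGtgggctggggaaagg
*Emcn*: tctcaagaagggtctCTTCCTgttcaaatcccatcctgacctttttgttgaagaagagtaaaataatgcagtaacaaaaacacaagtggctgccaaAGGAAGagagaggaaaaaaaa
The words start 129 and 53 bases before the *Flt1* start and 174 and 93 bases before the *Emcn* start. AGGAAG was found on either strand in 4 of 6 endothelial promoters, in 9 of the 24 promoters of the 21 genes (37.5%) and in 35.4% of all 32851 promoters in the table. The share among the vessel genes was thus close to that of all promoters. A match is a description of the letters and shows no binding.

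Pericyte genes gave the second widest range between tissues. *Vtn* was at 9.60, 9.45 and 9.25 in FIRE +/+ hippocampus and at 4.53, 5.17 and 5.36 in FIRE +/+ ileum, a 21.3-fold difference (log2 difference 4.42, SE 0.22, limma adjusted p = 9.76e-07), and 22.4-fold in FIRE -/- mice. *Kcnj8* was at 4.997, 5.31 and 5.26 against 7.26, 7.92 and 8.15, and *Abcc9* at 5.72, 5.24 and 5.51 against 7.09, 7.40 and 7.78. These partners in the same channel were thus both higher on every ileum array, 5.99-fold and 3.82-fold in FIRE +/+ and 5.21-fold and 4.21-fold in FIRE -/- mice. *Rgs5* was also higher in the ileum, by 2.44-fold and 2.14-fold.

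*Pdgfrb* and *Notch3* did not pass in either genotype. *Pdgfrb* was at 7.84, 7.89 and 7.94 in FIRE +/+ hippocampus and at 7.86, 8.31 and 8.08 in FIRE +/+ ileum, and the groups overlapped (log2 difference -0.19, interval -0.51 to 0.12). *Notch3* was at 5.44, 5.39 and 5.37 against 5.35, 5.35 and 5.15, a difference of 0.12 (interval -0.13 to 0.37), and of -0.09 (interval -0.37 to 0.20) in FIRE -/- mice. The 6 pericyte genes therefore did not move as a block between the tissues. In each genotype 1 was higher in the hippocampus, 3 in the ileum and 2 not past the threshold. The shares of all clusters are those given beside the endothelial genes.

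All 5 smooth muscle genes were higher in the ileum in both genotypes, with a median log2 difference of -5.24 in FIRE +/+ and -4.83 in FIRE -/- mice. *Cnn1* was at 3.97, 4.83 and 4.08 in FIRE +/+ hippocampus and at 10.71, 10.55 and 11.22 in FIRE +/+ ileum, with a log2 difference of -6.53 (SE 0.27, limma adjusted p = 3.21e-07). As 2 of these hippocampus arrays lay under the array median, taking that median as their floor makes *Cnn1* at least 78.7-fold higher in the ileum, and at least 47.0-fold in FIRE -/- mice, where 1 array lay under it. *Des* was 61.3-fold, *Myh11* 37.7-fold and *Tagln* 25.1-fold higher in the ileum of FIRE +/+ mice. *Acta2* was at 8.60, 8.85 and 8.56 against 11.92, 11.77 and 12.08, a 9.51-fold difference and the smallest of the 5. In FIRE -/- mice the folds were 41.0 for *Des*, 28.5 for *Myh11*, 16.8 for *Tagln* and 7.15 for *Acta2*.

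The *Acta2* promoter is shown because 1 of the 3 smooth muscle promoters in the table, this one, held words close to the CArG box, the site of serum response factor known from muscle genes. The stretch lies at chr19:34255383-34255472 on the minus strand (GRCm38.p6), and capitals mark the matches.
*Acta2*: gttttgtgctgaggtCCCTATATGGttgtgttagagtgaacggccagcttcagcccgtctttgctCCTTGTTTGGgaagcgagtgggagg
Both matches, 84 and 34 bases before the start, hold 1 C or G in the core of A and T. This looser form was searched after the exact CArG box was found in 0 of the 24 promoters, against 1.63% of all promoters. On either strand it was present in 6 of 24 promoters of the vessel genes and in 8.5% of all promoters. The 6 were not those of muscle genes in particular, with 3 of 6 endothelial promoters (*Eng*, *Tek* and *Kdr*) and those of *Slco1a4* and *Ocln* beside that of *Acta2*.

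Genes of the same pathways outside the 30 were counted from 10 further lists with 118 measured genes. In the genotype comparisons 1 of them passed, in the hippocampus, against 0.448% of all clusters there and 0% in the ileum. A single call among 118 genes is near that share. *Tgfb1*, the cytokine TGF-beta 1, which is made by microglia among other cells, was at 5.94, 5.90 and 5.87 in FIRE +/+ and at 5.16, 5.08 and 5.18 in FIRE -/- hippocampus. Every FIRE -/- array lay below every FIRE +/+ array. The log2 difference was -0.77 (SE 0.08, limma adjusted p = 0.00526), and in the ileum it was 0.13 (SE 0.40). The difference between the tissues did not pass (-0.90). Its co-receptor *Eng* is described above.

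Among ligands and receptors of the vessel wall, *Vegfa*, which binds the products of *Flt1* and *Kdr*, differed between genotypes by 0.06 in the hippocampus and by -0.08 in the ileum, and the *Tek* ligands *Angpt1* and *Angpt2* by 0.44 and 0.37 in the hippocampus, without passing. *Angpt1* lay under the lowest array median on every array of both tissues. *Pdgfb*, the ligand of the *Pdgfrb* product, differed by 0.03 in the hippocampus. The signals by which neural tissue induces the barrier, *Wnt7a* and *Wnt7b*, differed by -0.17 and -0.01 in the hippocampus. Both were higher there than in the ileum in FIRE +/+ mice (log2 differences 3.01 and 2.74). As they lay under the array median on all 6 ileum arrays, these are at least 1.94-fold and 3.21-fold with the median as the floor, whereas their receptor gene *Fzd4* did not pass (-0.18).

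The list of other barrier genes held 19 measured genes. In FIRE +/+ mice 8 of them were higher in the hippocampus, 8 in the ileum and 3 did not pass. Of all clusters 27.1% were higher in the hippocampus and 29.4% in the ileum. *Slco1c1*, a thyroid hormone transporter, and *Slc22a8*, an organic anion transporter, were higher in the hippocampus by 5.22 and 4.24 on the log2 scale, and *Slc2a1*, the glucose carrier GLUT1, by 1.70. The former pair lay under the array median on all 6 ileum arrays, and were at least 10.5-fold and 8.92-fold higher with the median as the floor. *Lsr*, a protein of junctions where 3 cells meet, was lower (-4.42). *Foxq1*, a transcription factor of brain endothelium, was at -0.23 and did not pass. Between genotypes 0 of the 19 passed in either tissue, with median differences of 0.10 in the hippocampus and -0.04 in the ileum.

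Of 22 other endothelial genes, 8 were higher in the hippocampus, 5 in the ileum and 9 did not pass in FIRE +/+ mice. The shares of all clusters were 27.1% and 29.4%, for this list and those that follow. The median difference was 0.00095. *Cd34* and *Nos3*, endothelial nitric oxide synthase, were higher in the hippocampus by 0.60 and 0.72, and the transcription factor gene *Erg* was lower (-0.73). *Sox17*, an arterial transcription factor gene, did not pass (0.58, limma adjusted p = 0.0516) and lay under the array median on every array of both tissues. *Nos3* lay under it on FIRE +/+ ileum arrays 1 and 3. The counts for these 22 endothelial genes lay near the shares of all clusters, with genes in both directions. Of 16 other smooth muscle genes 15 were higher in the ileum (median -2.85), among them *Actg2* (-6.42), *Myl9* (-3.91), *Mylk* (-3.14) and the cofactor gene *Myocd* (-3.54, under the array median on all 6 hippocampus arrays), while *Srf* itself differed by -0.52. All 6 basement membrane genes were higher in the ileum, with log2 differences of -1.85 for *Col4a1* and -1.51 for *Col4a2*.

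In other pericyte genes, 3 of 11 were higher in the hippocampus and 3 in the ileum of FIRE +/+ mice. Of all clusters 27.1% and 29.4% were, so these counts are near that share. *Anpep*, which enterocytes make in large amounts, was at -6.57, while *Cspg4*, the proteoglycan NG2, and *Higd1b* did not pass (0.22 and 0.17). *Higd1b* lay under the lowest array median on every array. The lymphatic gene *Lyve1* was lower in the hippocampus (-3.44), and *Prox1*, which is also expressed by granule neurons of the hippocampus, was higher (2.71). The artery gene *Gja4* did not pass (-0.12).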

How the data were processed

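The authors extracted total RNA with Trizol and RNeasy columns, hybridised it to Affymetrix Mouse Gene 1.0 ST arrays and deposited log2 values made by robust multi-array averaging (RMA, version not given in the sources used here), which corrects the background, equalises the arrays and gives 1 value per transcript cluster. The deposited log2 values (0.501 to 12.99, array medians 4.29 to 4.46) were used as they stand. Symbols were read from the annotation of the platform. The 21218 clusters that carry 1 symbol were tested, and 1881 with several symbols and 12457 with none were left out.

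Every comparison had a fit of its own arrays, made with lmFit and eBayes of limma 3.58.1 (R 4.3.3, two-sided), Benjamini-Hochberg adjustment over the 21218 clusters and a threshold of 0.05. The tissues' genotype effects were compared in a fit of all 12 arrays. Groups followed the labels. Precision is limited by the number of arrays, and p-values set each difference against the spread between these samples. Fits were tested on simulated data.

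All 30 genes are named, with genes of 10 further lists picked by name, any of those genes that passed between genotypes, and markers of 9 other cell types given by their mean. The genes and lists were chosen with earlier results of these data known. Of 122 further genes 118 were measured. Alternatives were a robust trended shrinkage, unmoderated variances, renewed quantile normalization, a test of every cluster, removal of dim clusters, terms for sex or for the ending of the array names, weights for arrays, 1 fit of all arrays, removal of the arrays of high B cell signal, and leaving out each array.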

Additional observations from a re-analysis of the deposited data

How the results depend on the processing

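Counts of genes past the threshold were 0 in every setting for both genotype comparisons and for the comparison of genotype effects between tissues. For hippocampus against ileum they ranged from 21 to 25 in FIRE +/+ mice (25 as reported) and from 19 to 27 in FIRE -/- mice (22 as reported), and with each array left out in turn from 21 to 25 and from 20 to 27. Differences of single genes no longer passed 33 times and newly passed 20 times, all between tissues and all in *Cdh5*, *Emcn*, *Kdr*, *Tek*, *Tie1*, *Flt1*, *Eng*, *Esam*, *Pdgfrb* and *Vwf*. *Flt1* did not pass in FIRE -/- mice on unmoderated variances (1.19, adjusted p = 0.0589).

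Of 2486 values of single genes under an alternative, 146 had the opposite sign to the reported one, 141 of them in genotype comparisons and 5 between tissues. None of these differences had passed as reported, and *Esam* in FIRE -/- mice alone passed under another setting. The cause was not tested.

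With each array left out in turn, the genotype differences in the hippocampus whose sign turned ranged from -0.050 to 0.42 for *Ocln*, -0.22 to 0.12 for *Mfsd2a*, -0.19 to 0.35 for *Slco1a4*, -0.026 to 0.15 for *Slc7a5*, -0.045 to 0.087 for *Pecam1*, -0.061 to 0.047 for *Cdh5*, -0.014 to 0.072 for *Tek*, -0.051 to 0.042 for *Tie1*, -0.063 to 0.088 for *Flt1*, -0.12 to 0.088 for *Kdr*, -0.0092 to 0.25 for *Emcn*, -0.040 to 0.16 for *Plvap*, -0.14 to 0.095 for *Abcc9*, -0.32 to 0.091 for *Kcnj8*, -0.041 to 0.57 for *Myh11* and -0.092 to 0.77 for *Des*. Those in the ileum ranged from -0.17 to 0.27 for *Cldn5*, -0.11 to 0.13 for *Ocln*, -0.55 to 0.11 for *Abcb1a*, -0.30 to 0.23 for *Slc7a5*, -0.068 to 0.16 for *Pecam1*, -0.13 to 0.37 for *Cdh5*, -0.23 to 0.19 for *Tek*, -0.080 to 0.30 for *Tie1*, -0.031 to 0.55 for *Flt1*, -0.21 to 0.33 for *Eng*, -0.16 to 0.43 for *Esam*, -0.30 to 0.38 for *Emcn*, -0.43 to 0.15 for *Vwf*, -0.074 to 0.42 for *Pdgfrb*, -0.22 to 0.070 for *Rgs5*, -0.046 to 0.30 for *Abcc9*, -0.17 to 0.24 for *Vtn*, -0.085 to 0.070 for *Acta2*, -0.24 to 0.032 for *Myh11*, -0.26 to 0.061 for *Tagln* and -0.22 to 0.042 for *Des*. The difference of genotype effects between tissues ranged from -0.062 to 0.41 for *Ocln*, -0.13 to 0.043 for *Tjp1*, -0.20 to 0.46 for *Abcb1a*, -0.27 to 0.27 for *Slco1a4*, -0.18 to 0.35 for *Slc7a5*, -0.14 to 0.095 for *Pecam1*, -0.37 to 0.12 for *Cdh5*, -0.15 to 0.27 for *Tek*, -0.30 to 0.074 for *Tie1*, -0.54 to 0.042 for *Flt1*, -0.51 to 0.020 for *Eng*, -0.30 to 0.29 for *Esam*, -0.27 to 0.41 for *Emcn*, -0.32 to 0.027 for *Abcc9*, -0.029 to 0.46 for *Kcnj8* and -0.098 to 0.32 for *Vtn*. The difference between tissues ranged from -0.20 to 0.047 for *Esam* in FIRE +/+ mice and from -0.39 to 0.19 for *Esam* and -0.35 to 0.23 for *Vwf* in FIRE -/- mice.

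In the hippocampus the genotype difference turned to 0.079 for *Abcb1a*, -0.058 for *Slco1a4*, 0.023 for *Tie1*, -0.097 for *Flt1*, -0.16 for *Emcn*, -0.047 for *Rgs5*, -0.074 for *Notch3* and -0.15 for *Des* with the ending of the array names as a covariate. It turned to -0.015 for *Slc7a5*, 0.0034 for *Cdh5*, 0.033 for *Tie1*, 0.052 for *Kdr* and 0.0015 for *Abcc9* with labelled sex as a covariate, to -0.041 for *Slco1a4* and -0.0040 for *Flt1* with array weights and to -0.018 for *Flt1* with renewed quantile normalization. In the ileum it turned to -0.18 for *Ocln*, -0.048 for *Tjp1*, 0.082 for *Tek*, 0.44 for *Eng*, 0.39 for *Emcn* and 0.18 for *Vwf* without both arrays of high B cell signal, to -0.018 for *Ocln*, -0.015 for *Slc7a5*, 0.043 for *Eng* and 0.039 for *Emcn* with sex, to -0.014 for *Ocln*, -0.081 for *Slc7a5*, 0.046 for *Eng* and 0.039 for *Emcn* with array weights and to 0.0043 for *Eng* and 0.00050 for *Acta2* with renewed quantile normalization. The difference of genotype effects turned to 0.12 for *Tjp1*, -0.10 for *Slc7a5*, -0.043 for *Tek*, -0.22 for *Esam*, -0.28 for *Emcn* and -0.17 for *Vtn* without both arrays of high B cell signal, a setting for this comparison chosen after seeing the data. It turned to -0.025 for *Esam* with array weights and to -0.029 for *Slc7a5* with renewed quantile normalization.

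Using the mean of all clusters of a gene changed nothing, as each of the 30 genes has 1 cluster of its own. *Slco1a4* has no value with dim clusters left out in the ileum. No paired analysis was possible because the labels give no replicate numbers and do not say whether a mouse gave both tissues. With 3 arrays a group, small differences were not detectable.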

Other observations

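Some genes of high endothelial venules, the vessels by which lymphocytes enter a Peyer's patch, were highest on 1 ileum array of each genotype. These are FIRE +/+ ileum array 2 and FIRE -/- ileum array 1, the arrays with high B cell signal. *Madcam1*, the addressin of these venules, was at 4.35, 6.67 and 4.59 in FIRE +/+ and at 6.33, 4.89 and 4.98 in FIRE -/- ileum. *Glycam1*, a ligand of L-selectin, was at 6.16 and 7.80 on those arrays against 3.29 to 3.62 on the other 4. The adhesion molecules *Icam1* and *Vcam1* had the same 2 arrays at the top, with *Icam1* at 6.11 and 6.07 against 4.89 to 5.42 and *Vcam1* at 6.89 and 6.84 against 5.47 to 6.14. The other 5 of the 9 vein and venule genes measured (*Selp*, *Sele*, *Ackr1*, *Nr2f2* and *Chst4*) did not have both arrays at the top, and *Nr2f2* and *Selp* were lowest on FIRE -/- array 1. The mean of the 9 genes was 5.88 and 5.93 on the 2 arrays and 4.94 to 5.29 on the other 4. None of the 9 genes passed between genotypes in either tissue.

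Choroid plexus signal was low on FIRE +/+ hippocampus array 2. On that array *Slco1a4* was at 7.21, its highest value among the 6 hippocampus arrays. *Plvap* was at 5.57 there, the lowest of the 3 FIRE +/+ arrays but not of the 6. FIRE -/- hippocampus array 2, which had the highest choroid plexus mean (8.53), had *Slco1a4* at 7.16 and *Plvap* at 5.57. *Plvap* was lowest on FIRE -/- hippocampus array 1 (5.56). A link to choroid plexus was not tested.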
